A study of Homo sapiens with 6 samples.

Results

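The 37 genes described here encode parts of the machinery that makes ribosomes in the nucleolus. They come from a list of genes named by function, drawn up with earlier results of these data known, and were found by their NCBI Gene identifiers among the 23459 genes of the count table. All 37 were present and all 37 passed the filter on low counts that left 13124 genes for testing. They fall into 7 roles: 4 subunits of RNA polymerase I, 4 factors that start its transcription, 3 core proteins of box C/D ribonucleoproteins, 4 proteins of box H/ACA ribonucleoproteins, 5 nucleolar RNA-binding and growth proteins, 10 factors of small subunit assembly and 7 of large subunit assembly.

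RNA was sequenced from T47D-YA cells, a line derived from the luminal breast cancer line T47D that carries the A form of the progesterone receptor. The 3 groups, with 2 libraries in each, received an empty vector or overexpressed fibroblast growth factor 2 (FGF2) as its 18 kDa or its 22.5 kDa form. The 18 kDa form is the one that can leave the cell, and the larger form carries an extra N-terminal stretch that takes it to the nucleus. Neither the vector and its promoter, nor whether a group is 1 clone or a pool, nor whether the 2 libraries came from separate cultures is stated in the labels, so p-values measure the spread between these libraries, which may be technical.

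Ribosome production starts when RNA polymerase I, brought to the ribosomal DNA by the initiation factor RRN3 and the SL1 complex, transcribes the long precursor of the ribosomal RNAs. Small nucleolar RNAs guide chemical marks onto that precursor: box C/D particles, built around fibrillarin, NOP56 and NOP58, add methyl groups, and box H/ACA particles, built around dyskerin, turn uridine into pseudouridine. Early assembly factors then fold and cut the small subunit part and, through complexes such as PES1-BOP1-WDR12, the large subunit part, and MYC, which binds the E-box letters CACGTG, is a well-known activator of many of these genes in tumour cells.

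The libraries held 5317687 to 6817324 counts. FGF2 counts were 12 and 13 with the empty vector, 6259 and 4365 with the 18 kDa form and 8731 and 7758 with the 22.5 kDa form, which fits the labels of all 6. Levels are given in CPM (a gene's counts scaled to the effective size of its library). For sums over cell type markers the raw library total was used instead. These sums were 13129 to 21747 for 9 luminal epithelial markers and 51.1 to 87.6 for 8 fibroblast markers. They were 7.82 to 15.1 for 5 leukocyte markers and 2.77 to 6.21 for 4 endothelial markers, with 1 leukocyte marker at 0 throughout. Among the luminal markers 2 of 9 passed with each isoform, the hormone receptors ESR1 and PGR, both lower, and EPCAM passed as higher for the mean of both isoforms (log2 fold change 0.88, adjusted p = 0.0412). Of the 9, 5 lay above 0 with 18 kDa and 1 with 22.5 kDa. Library 1 of each FGF2 group stood apart from its partner in the second principal component (−48.0 against −2.65 for 18 kDa, 42.7 against 8.29 for 22.5 kDa). The set medians, the numbers of calls and the HEATR1 isoform difference are given below with and without these libraries.

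Of the 37 genes, 31 had a promoter in the RefSeq table (GRCh38.p14), which holds 250 bases before and 50 after each transcription start. The E-box CACGTG, which reads the same on both strands, was searched because several members are known MYC targets. It occurred in 10 of the 31 promoters (32.3%), against 10.3% of the 10402 promoters of tested genes and 7.43% of all 27305 in the table. The letters CCGGAAG on either strand, the core of the site bound by ETS factors, were in 12 of the 31 (38.7%) and in 19.6% of the promoters of tested genes, and the 2 motifs cannot overlap each other. The 10 E-boxes are shown because they sit close to the start: the first base lay between position −16 (UTP4) and position 36 (NOP2), counted from 1 at the start with no position 0. The same stretch held 18.7% of the 1218 E-boxes in promoters of tested genes, and it was chosen from the members' own positions, so that share is a description. The windows are written 5′ to 3′ on the strand of the gene, with the E-box in capitals, in the order of its position.
UTP4: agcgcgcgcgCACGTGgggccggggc
UTP20: tttttccgtcCACGTGacccactcag
RRP9: gttcagctgcCACGTGagttctgcgg
WDR43: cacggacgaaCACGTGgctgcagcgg
FBL: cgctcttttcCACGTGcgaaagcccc
PES1: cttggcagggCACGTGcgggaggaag
MRTO4: tcttccgccgCACGTGgattcagcgc
NOP14: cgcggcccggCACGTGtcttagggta
BYSL: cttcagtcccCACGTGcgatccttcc
NOP2: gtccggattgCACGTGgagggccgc

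Members with and without the E-box are set side by side as a description. With the 18 kDa form the median log2 fold change was 0.33 over the 10 genes with an E-box (8 above 0) and −0.12 over the 21 without (6 above 0). With the 22.5 kDa form the medians were 0.30 (9 of 10 above 0) and 0.22 (18 of 21 above 0). The transcripts of the 10 genes had a median GC content of 55.01% and those of the 21 genes 47.1%, and over the 37 members the log2 fold change had r = 0.58 with GC for 18 kDa and −0.20 for 22.5 kDa. The part of GC content in the side-by-side values was not tested. The genes that passed the test against the empty vector with a single isoform had no E-box in their window. MYC itself was not called with either isoform (log2 fold change 0.14 and 0.44, adjusted p = 0.812 and 0.318).

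Of the 4 RNA polymerase I subunit genes 2 passed: POLR1A, for the largest subunit, rose with both isoforms, and POLR1B, for the second largest, with 22.5 kDa only among the single isoforms. POLR1A and POLR1B form the catalytic centre of the enzyme. POLR1A stood at 22.5 and 28.3 CPM in the empty vector libraries, 71.8 and 52.7 with 18 kDa FGF2, and 61.1 and 55.5 with 22.5 kDa FGF2. All 4 FGF2 libraries lay above both controls. The gene rose 2.45-fold with 18 kDa (log2 fold change 1.29, SE 0.25, adjusted p = 0.000903) and 2.29-fold with 22.5 kDa (1.2, SE 0.25, adjusted p = 0.00164) in edgeR's quasi-likelihood test with Benjamini-Hochberg adjustment over all tested genes, used throughout. The 22.5 kDa call was lost without the first empty vector library (adjusted p = 0.0641). The difference between the isoforms was −0.10 (95% interval −0.59 to 0.39).

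POLR1B stood at 28.1 and 46.2 CPM in the controls, 53.1 and 71.3 with 18 kDa and 95.9 and 80.4 with 22.5 kDa FGF2. The 3 groups did not overlap, and the 22.5 kDa libraries were the highest. It rose 2.38-fold with 22.5 kDa (1.25, SE 0.25, adjusted p = 0.00172), a call lost without the first empty vector library (adjusted p = 0.0928). With 18 kDa the value was 0.74 (SE 0.25, adjusted p = 0.0735), which did not pass, and the isoform difference of 0.50 (95% interval −0.01 to 1.02) did not pass either. The other two subunits, POLR1C, which the enzyme shares with RNA polymerase III, and POLR1E, a peripheral subunit, ran from −0.15 to 0.19 in both comparisons and their FGF2 libraries overlapped the controls. POLR1C lay at 49.7 and 57.4 CPM in controls, 52.5 and 44.1 with 18 kDa and 53.0 and 68.6 with 22.5 kDa (−0.15, SE 0.23, adjusted p = 0.784, and 0.18, SE 0.23, adjusted p = 0.721). POLR1E lay between 39.7 and 53.4.

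**Figure D1:**
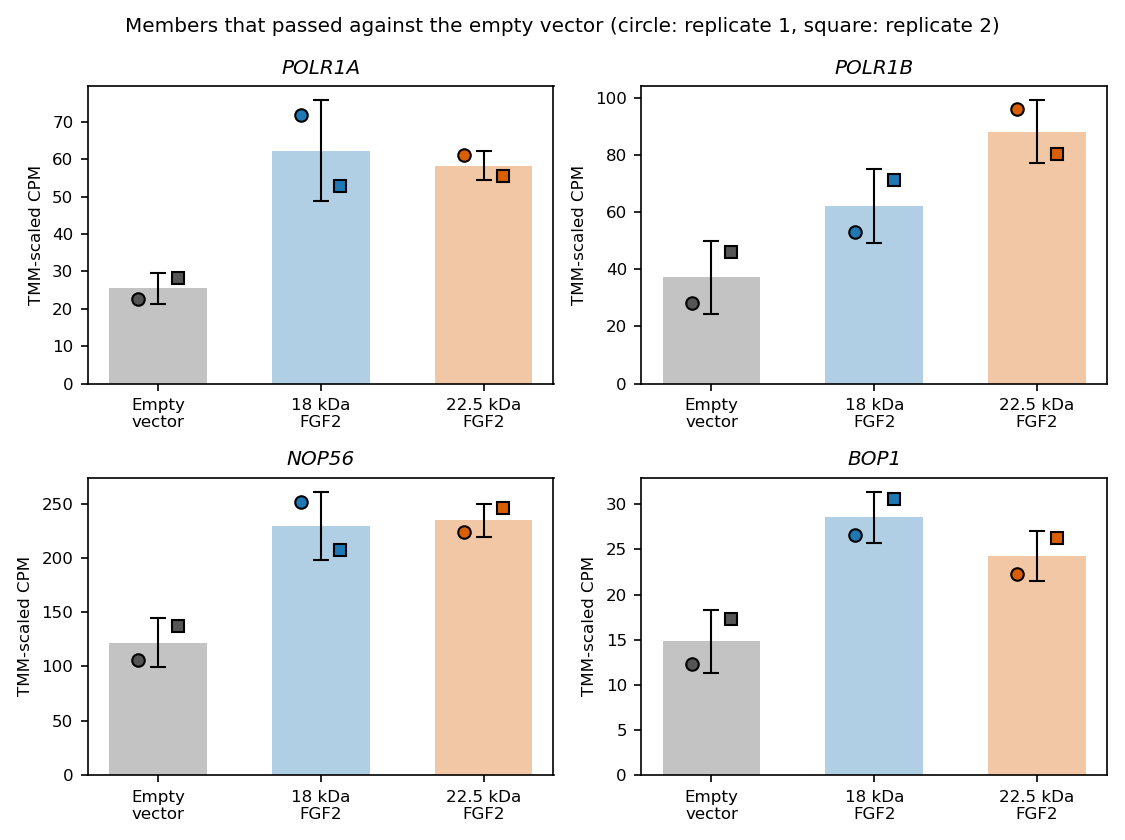
Level (TMM-scaled CPM, linear axis from 0) of the 4 members that passed a test against the empty vector. Bars are the mean of 2 libraries, error bars the SD, circles replicate 1 and squares replicate 2; in all 4 genes every FGF2 library lies above both empty vector libraries.

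The promoters of both genes are printed because these 2 subunit genes passed; each run is the 250 bases before the start, 5′ to 3′ on the strand of the gene (RefSeq, GRCh38.p14). POLR1A (Gene ID 25885) is read from the minus strand of chr2:86105887-86106136 and held neither motif. POLR1B (Gene ID 84172) is read from the plus strand of chr2:112541786-112542035 and held 1 CCGGAAG, in capitals, whose first base lies at position −126.
POLR1A: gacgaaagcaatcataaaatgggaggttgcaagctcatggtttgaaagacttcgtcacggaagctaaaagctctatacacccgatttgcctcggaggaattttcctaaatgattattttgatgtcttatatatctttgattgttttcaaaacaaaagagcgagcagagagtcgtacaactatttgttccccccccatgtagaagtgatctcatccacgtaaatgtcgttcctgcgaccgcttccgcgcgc
POLR1B: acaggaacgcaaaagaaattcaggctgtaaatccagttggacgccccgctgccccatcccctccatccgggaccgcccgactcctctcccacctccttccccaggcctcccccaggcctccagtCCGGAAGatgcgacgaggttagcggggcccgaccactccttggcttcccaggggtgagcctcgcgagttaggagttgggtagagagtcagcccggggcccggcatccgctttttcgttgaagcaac

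None of the 4 initiation factors passed. RRN3, which couples the polymerase to the promoter, lay at 50.1 and 45.4 CPM in controls, 25.2 and 63.1 with 18 kDa and 85.2 and 58.5 with 22.5 kDa FGF2. The 18 kDa pair enclosed both controls, so no direction could be read from it. TAF1A, TAF1C and TAF1D, subunits of SL1, had values of −0.40, −0.11 and −0.35 with 18 kDa and 0.34, −0.48 and −0.41 with 22.5 kDa. TAF1C was the only member at an unadjusted p below 0.05 in the lower direction against the empty vector (135 and 138 CPM in controls, 133 and 120.3 with 18 kDa, 91.3 and 105 with 22.5 kDa, SE 0.21, adjusted p = 0.162). TAF1D lay at 48.1 and 33.2 CPM in controls, 25.6 and 38.1 with 18 kDa and 38.3 and 22.4 with 22.5 kDa (SE 0.30 in both, adjusted p = 0.574 and 0.464). Both TAF1D pairs overlapped the controls. TAF1A lay at 2.68 and 1.88 CPM, 1.69 and 1.76, and 3.67 and 2.00 (SE 0.54 and 0.51, adjusted p = 0.735 and 0.772), with both 18 kDa libraries below the controls and the 22.5 kDa pair overlapping them. TAF1A was the scarcest member, with as few as 10 counts in a library and 1.16 CPM per kb of transcript. RRN3 and NPM1 have near-identical copies elsewhere in the genome, so their counts are uncertain.

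NOP56, a scaffold protein of the box C/D particle, rose with both isoforms. It stood at 106 and 138 CPM in controls, 252 and 207 with 18 kDa and 224 and 245 with 22.5 kDa FGF2. The lowest FGF2 library was at 207 CPM and the higher control at 138. The fold was 1.89 with 18 kDa (0.91, SE 0.22, adjusted p = 0.00665) and 1.92 with 22.5 kDa (0.94, SE 0.22, adjusted p = 0.00464), and the isoforms differed by 0.03 (95% interval −0.41 to 0.47). The 18 kDa call was lost without the first empty vector library (adjusted p = 0.289) and without the first 18 kDa library (0.0521), and the 22.5 kDa call without the first empty vector library (0.211) and without the second 22.5 kDa library (0.0501).

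Its partners did not pass. Fibrillarin (FBL), the methyltransferase of the particle, lay at 176 and 208 CPM in controls, 230.2 and 245 with 18 kDa and 159 and 210.1 with 22.5 kDa. NOP58, the second scaffold protein, lay at 30.6 and 17.3, 19.0 and 23.4, and 42.5 and 21.6 CPM. The NOP58 control pair enclosed 3 of the other 4 libraries, and the first 22.5 kDa library was the highest. The 250 bases before the start of NOP56 (Gene ID 10528, plus strand of chr20:2652382-2652631, RefSeq, GRCh38.p14) held neither motif and are printed because this gene rose with both isoforms.
NOP56: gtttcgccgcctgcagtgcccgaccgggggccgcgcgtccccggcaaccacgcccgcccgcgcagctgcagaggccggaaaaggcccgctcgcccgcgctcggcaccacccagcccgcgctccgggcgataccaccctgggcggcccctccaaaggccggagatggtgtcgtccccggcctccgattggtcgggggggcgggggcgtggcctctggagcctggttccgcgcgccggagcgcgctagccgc

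Among the box H/ACA proteins, none passed. DKC1 (dyskerin, the pseudouridine synthase), GAR1 and the chaperone NOLC1 ran from −0.25 to 0.18 in both comparisons. GAR1 lay at 29.5 and 36.4 CPM in controls, 28.1 and 30.4 with 18 kDa and 35.3 and 25.9 with 22.5 kDa (−0.17 and −0.10, SE 0.27 in both, adjusted p = 0.785 and 0.882). NOLC1 lay at 253 and 301 CPM, 231 and 236, and 311 and 262 (−0.25 and 0.05, SE 0.21 in both, adjusted p = 0.576 and 0.932). The NOLC1 libraries with 18 kDa were below both controls, and the other pairs of these 2 genes overlapped them. NHP2, an RNA-binding core protein, lay at 117 and 148 CPM in controls, 193 and 201 with 18 kDa and 123 and 165 with 22.5 kDa FGF2. Its 18 kDa libraries lay above all others (0.57, SE 0.22, adjusted p = 0.112), while its 22.5 kDa libraries overlapped the controls.

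Among the 5 nucleolar RNA-binding and growth proteins the libraries of a group often differed widely. NCL (nucleolin, which binds the precursor RNA) lay at 347 and 381 CPM in controls, 256 and 437 with 18 kDa and 741 and 440 with 22.5 kDa FGF2. DDX21, an RNA helicase of polymerase I transcription and processing, lay at 114 and 87.4, 43.9 and 124, and 220.5 and 116 CPM. In both genes the lowest value was in the first 18 kDa library and the highest in the first 22.5 kDa library. NPM1 (nucleophosmin, a nucleolar chaperone) lay at 200.1 and 175 CPM in controls, 121 and 172 with 18 kDa and 231 and 170.4 with 22.5 kDa (−0.36 and 0.10, SE 0.23 in both, adjusted p = 0.415 and 0.864). Its 18 kDa pair was below both controls, by a narrow margin for the second library, and its 22.5 kDa pair enclosed them. All 5 genes, which include GNL3 (nucleostemin) and LYAR, lay below 0 with 18 kDa (−0.36 to −0.07) and above 0 with 22.5 kDa (0.10 to 0.74), and none passed in any comparison. The second libraries did not show this order of the isoforms. There NPM1, DDX21, GNL3 (44.97 and 33.27 CPM) and LYAR (37.6 and 33.27 CPM) were higher with 18 kDa than with 22.5 kDa, for NPM1 by a narrow margin. NCL was nearly equal in them (437 and 440 CPM). NPM1, DDX21, GNL3 and LYAR are below 45% GC, a class whose libraries differed widely within both FGF2 groups, as given below.

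None of the 10 small subunit factors passed, although all 10 lay above 0 with the 22.5 kDa form (0.14 to 0.98, median 0.26) and 7 of 10 with the 18 kDa form (median 0.19). WDR43, a factor of the early small subunit processome, had the largest value with 22.5 kDa: 24.1 and 14.3 CPM in controls, 19.5 and 41.1 with 18 kDa and 48.4 and 27.1 with 22.5 kDa (0.98, SE 0.41, adjusted p = 0.175). In each WDR43 group 1 library was well above the other, and the 18 kDa pair enclosed the higher control. UTP4 lay at 114 and 149, 145 and 143, and 171 and 196 CPM (0.48 with 22.5 kDa, adjusted p = 0.169), and the 22.5 kDa pair was above the other 4 libraries. RRP9, a protein of the U3 particle, lay at 42.6 and 42.2, 61.5 and 60.1, and 46.4 and 57.9 CPM (0.52 with 18 kDa, adjusted p = 0.190), so both FGF2 pairs were above the controls. RRP12, the most abundant in CPM of the 10, lay at 222 and 281 CPM in controls, 323.5 and 271 with 18 kDa and 279 and 301 with 22.5 kDa (0.24 and 0.21, SE 0.22 in both, adjusted p = 0.589 and 0.644). UTP20 lay at 19.0 and 18.4 CPM, 8.13 and 22.3, and 36.3 and 18.4 (−0.30, SE 0.45, adjusted p = 0.778, and 0.56, SE 0.45, adjusted p = 0.523). All pairs of these 2 genes overlapped the controls. RRP12, NOP14, UTP15, the assembly factor BYSL and the nuclease NOB1 ran from −0.02 to 0.41 in both comparisons.

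HEATR1, a scaffold of the small subunit processome, had the largest isoform difference of the 37 genes. It lay at 64.0 and 69.8 CPM in controls, 31.9 and 70.1 with 18 kDa and 132 and 103 with 22.5 kDa FGF2. The 22.5 kDa pair was above all other libraries, and only the first 18 kDa library was below the controls. The isoform difference of 1.21 (SE 0.31, 95% interval 0.53 to 1.88) did not pass in edgeR (adjusted p = 0.0858) and passed in DESeq2 (0.0116) and limma-voom (0.0265). Without the first library of both FGF2 groups it was 0.56 (adjusted p = 0.205).

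Of the 7 large subunit factors, BOP1 rose when both isoforms were set together against the empty vector. BOP1, which with PES1 and WDR12 forms a complex needed to cut the large subunit precursor, lay at 12.3 and 17.3 CPM in controls, 26.5 and 30.6 with 18 kDa and 22.3 and 26.3 with 22.5 kDa FGF2. All 4 FGF2 libraries were above both controls. The mean of both isoforms was 0.83 above the control (SE 0.27, adjusted p = 0.0469), while each isoform alone did not pass (0.95, adjusted p = 0.0531, and 0.71, adjusted p = 0.154). The call for the mean was lost in 9 of 18 alternatives, among them leaving out the first or second empty vector library (adjusted p = 0.581 and 0.127) or the first or second 22.5 kDa library (0.0525 and 0.109).

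Its partner PES1 lay at 150 and 182 CPM in controls, 248 and 205 with 18 kDa and 212 and 243 with 22.5 kDa FGF2. Both pairs were above the controls, at 0.45 with either isoform (adjusted p = 0.236 and 0.199). WDR12, the third protein of the complex, lay at 21.1 and 27.0, 16.6 and 25.6, and 37.3 and 32.1 CPM, higher than control in the 22.5 kDa pair alone (0.53, adjusted p = 0.294). RRS1 lay at 106 and 115 CPM in controls, 138 and 123.5 with 18 kDa and 119 and 106 with 22.5 kDa (0.24 and 0.02, SE 0.21 in both, adjusted p = 0.578 and 0.968). Its 18 kDa pair was above the controls and its 22.5 kDa pair enclosed them. NOP2, a methyltransferase of the large subunit RNA, NOP16, RRS1 and MRTO4 ran from −0.03 to 0.36 in both comparisons, and none passed.

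**Figure D2:**
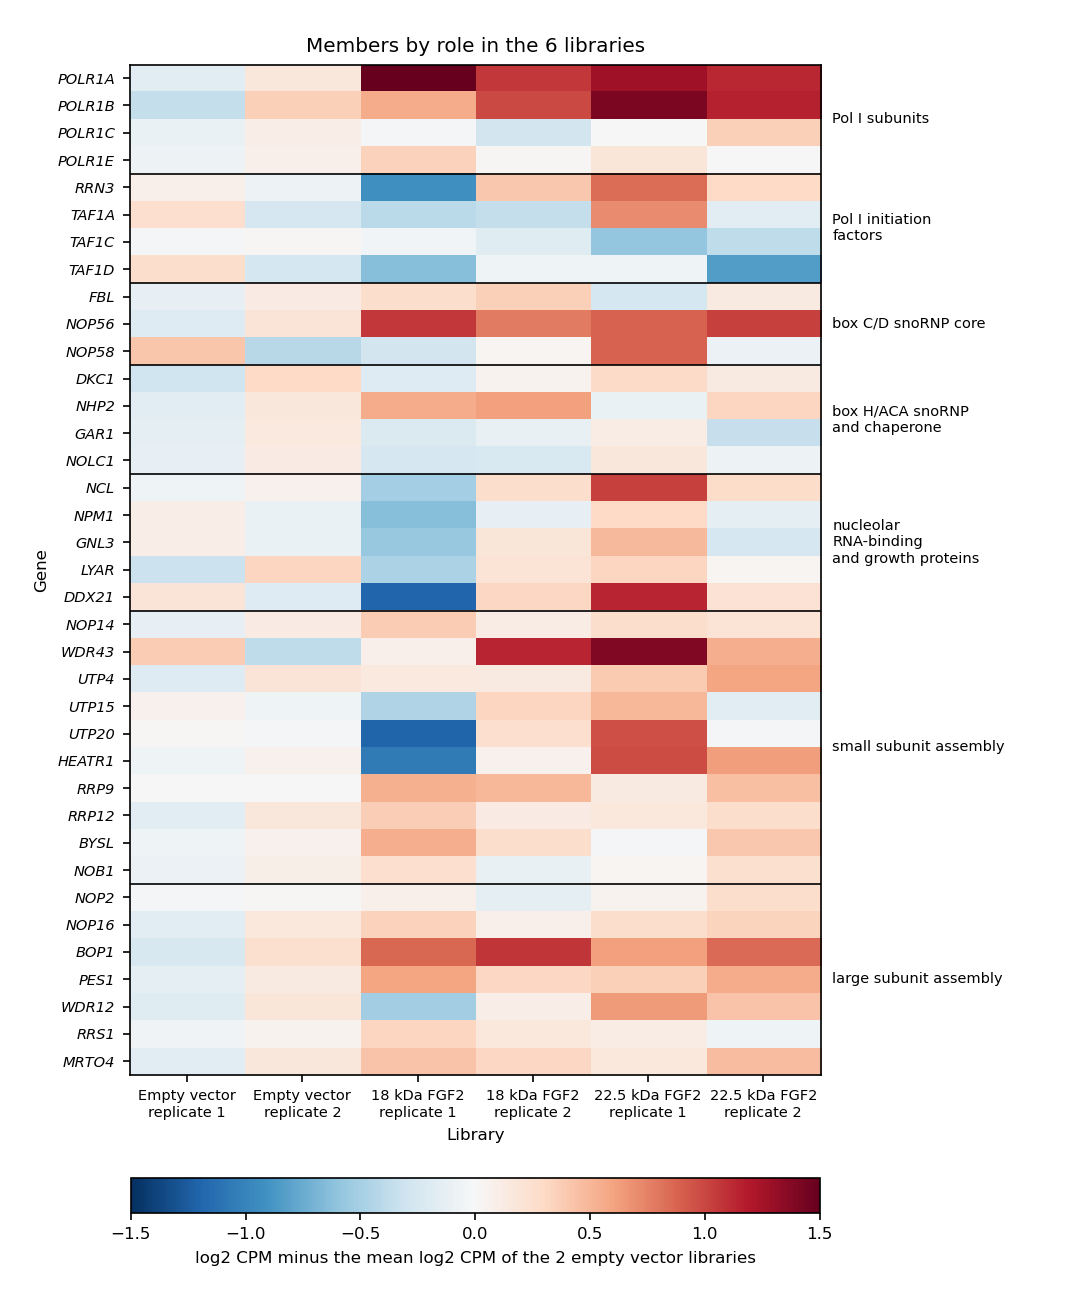
Each cell is a member's log2 CPM in 1 library minus its mean log2 CPM in the 2 empty vector libraries (colour scale from −1.5 to 1.5), with members grouped by role. POLR1A, POLR1B, NOP56 and BOP1 are high in all 4 FGF2 libraries, while DDX21, UTP20 and HEATR1 are lowest in the first 18 kDa library and highest in the first 22.5 kDa library.

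Counted over the whole set, 2 of 37 genes passed as higher and 0 as lower with 18 kDa FGF2, where 8.88% of all tested genes passed (4.09% higher, 4.79% lower). With 22.5 kDa FGF2, 3 passed as higher and 0 as lower, against 10.9% of all tested genes (5.02% higher, 5.88% lower). For the mean of both isoforms 4 passed as higher and 0 as lower, against 12.2% (5.29% higher, 6.90% lower). These shares lie near the background and are no result about the set as a whole. Of the calls for the mean, those of POLR1B, NOP56 and BOP1 were lost without the first empty vector library, and that of POLR1A was kept. Groups did not overlap in the higher direction for 11 members with 18 kDa (25.0% of all tested genes) and for 16 with 22.5 kDa (26.0%). In the lower direction the counts were 4 (26.9%) and 1 (27.0%). For both isoforms together, 6 members lay above the controls in all 4 libraries (14.6% of all tested genes) and 1 below (16.8%). At an unadjusted p below 0.05 there were 7 members with 18 kDa, all higher (20.2% of all tested genes in either direction), 10 with 22.5 kDa, 9 of them higher (23.4%), and 6 for both together, all higher (24.1%).

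Directions were counted for each isoform, and the difference between the counts was not tested. With 18 kDa, 18 members lay above 0 and 19 below, with a median log2 fold change of −0.02 (quartiles −0.17 and 0.36), and the median of all tested genes was −0.05. With 22.5 kDa, 33 lay above 0 and 4 below, with a median of 0.23 (quartiles 0.14 and 0.56) beside 0.01 for all tested genes. Both comparisons use the same 2 empty vector libraries. The median with 18 kDa depended on the library: it was 0.19 without the first 18 kDa library, 0.23 without the second empty vector library and 0.17 without the first library of both FGF2 groups. Since CPM gives each gene's share of a library, a change in total RNA per cell could not be measured.

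Between the isoforms 0 of 37 members passed, against 1.58% of all tested genes (1.13% higher, 0.450% lower). Unadjusted p lay below 0.05 for 4 members in edgeR (HEATR1, NCL and WDR12 higher with 22.5 kDa, NHP2 lower; 11.9% of all tested genes), 5 in DESeq2 and 8 in limma-voom, and HEATR1 alone passed after adjustment in DESeq2 and in limma-voom. Groups did not overlap in the higher direction for 9 members (19.1% of all tested genes) and in the lower direction for 6 (19.0%). DDX21 and UTP20 followed HEATR1 in size (1.01 and 0.86), and NHP2, TAF1C and FBL had the lowest values (−0.45, −0.37 and −0.36). In the second libraries DDX21 lay at 124 CPM with 18 kDa and 116 with 22.5 kDa, and UTP20 at 22.3 and 18.4. There both were lower with 22.5 kDa, and NHP2, TAF1C and FBL were also lower with it. The median isoform difference of the set was 0.19, and 0.01 without the first library of both FGF2 groups.

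**Figure D3:**
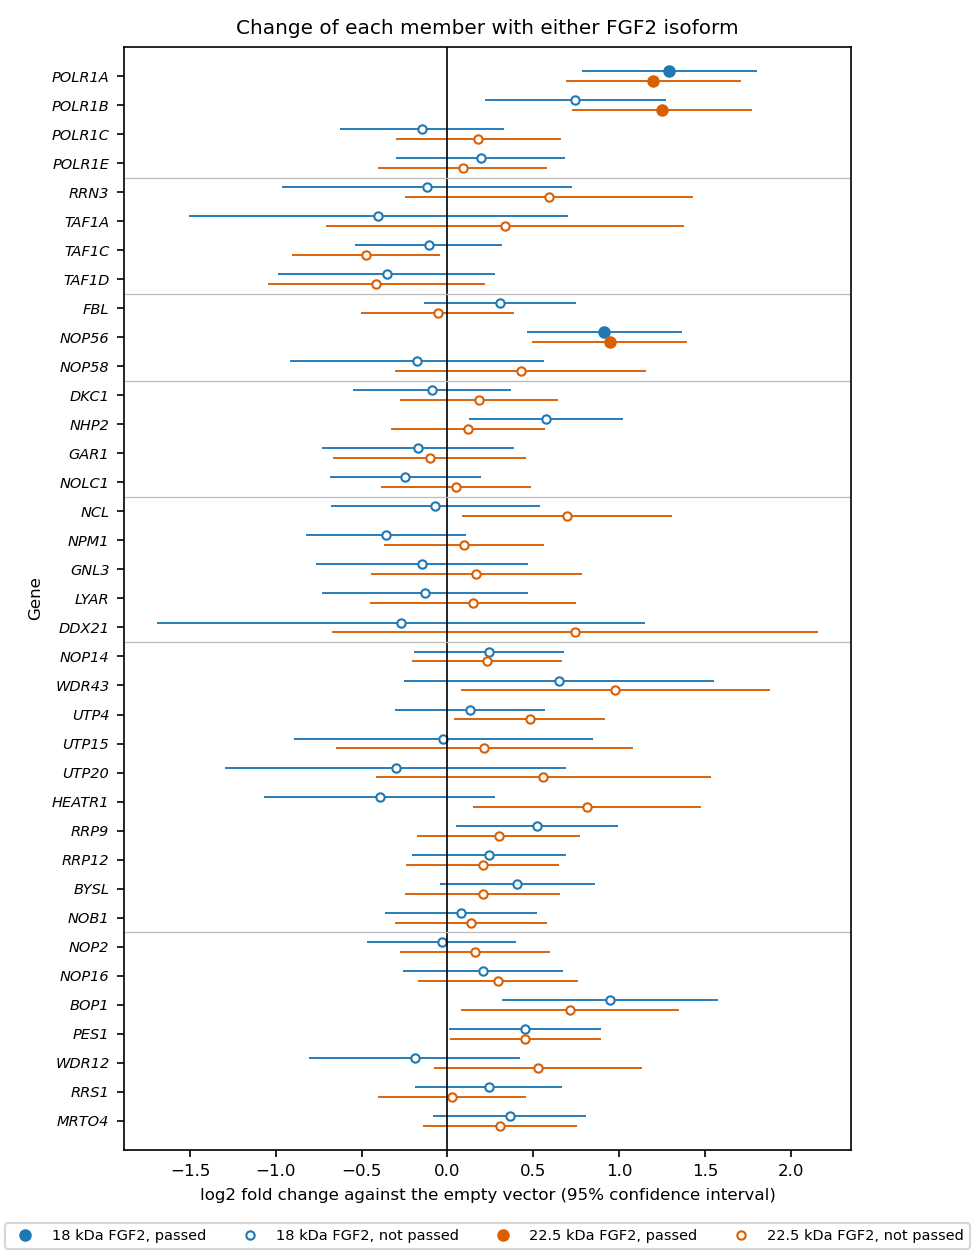
log2 fold change of each member against the empty vector, with 95% confidence intervals from the fit across all genes. Filled points passed at an adjusted p below 0.05 (POLR1A and NOP56 with 18 kDa; POLR1A, POLR1B and NOP56 with 22.5 kDa), open points did not; intervals are widest for DDX21 and TAF1A.

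Differences between the 2 libraries of a group ran with the GC content of the transcripts. The members' principal transcripts range from 39.0% to 65.2% GC. Across the 37 genes the log2 difference between library 1 and library 2 had r = −0.47 with GC in the empty vector group, 0.72 in the 18 kDa group and −0.84 in the 22.5 kDa group. Across all 12902 tested genes with a GC value the same r were −0.29, 0.53 and −0.58. These are descriptions across genes, which share the same libraries.

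For the 13 members below 45% GC the difference between libraries was large in both FGF2 groups. Library 1 was below library 2 in 13 of 13 with 18 kDa (median difference −0.72) and above it in 13 of 13 with 22.5 kDa (median 0.73). The highest level over the 6 libraries exceeded the lowest by a median of 2.25-fold in these genes, and by 1.52-fold in the 11 members at 55% GC or more. The first 22.5 kDa library held the highest value of 11 of the 13, and the first 18 kDa library the lowest of 10. The isoform difference itself had r = −0.78 with GC over the members, and −0.31 over all tested genes.

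Removing each library's GC trend before the test kept every call made with a single isoform and added others, among them POLR1B with 18 kDa. With 18 kDa, 6 members then passed, all higher: POLR1A, POLR1B, NOP56, NHP2, WDR43 and BOP1, when 14.9% of all genes with a GC value passed. With 22.5 kDa, 8 passed, all higher: POLR1A, POLR1B, NOP56, WDR43, UTP4, HEATR1, BOP1 and PES1, when 19.2% of all genes did. The set's median became 0.10 with 18 kDa and 0.30 with 22.5 kDa, and among all calls the higher share moved from 46.1% to 54.1% and to 56.5% respectively. The part that RNA quality or library preparation plays in the GC pattern was not tested.

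POLR1A, POLR1B and NOP56 lie among neighbouring genes whose median log2 fold change was above 0 with both isoforms. For each gene the median log2 fold change of the 12 tested neighbours on each side was taken, in the gene order of the RefSeq table. POLR1A and POLR1B are both on chromosome 2, where the 836 tested genes had a median of 0.35 with 18 kDa (122 passed as higher, 26 as lower) and 0.59 with 22.5 kDa (153 and 13). The neighbours of POLR1A had a median of 0.47 with 18 kDa, with 24 of 24 above 0, and 0.61 with 22.5 kDa. Those of POLR1B were at 0.48 and 0.63, and those of NOP56, on chromosome 20, at 0.63 and 0.50. Of the 24 neighbours, those called higher with 18 kDa and 22.5 kDa numbered 4 and 5 for POLR1A, 6 and 3 for POLR1B and 7 and 4 for NOP56. Of all tested genes 4.09% and 5.02% passed as higher. Whether the neighbours of POLR1A and POLR1B differ from the rest of chromosome 2 was not tested. POLR1A, POLR1B and NOP56 exceeded their own neighbours' medians in both comparisons. They were named because they passed as higher, so that order was nearly fixed beforehand. A rise beyond that of the region was not tested.

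Windows like these were uncommon. With 18 kDa the neighbourhoods of POLR1A, POLR1B, NOP56 and WDR43 were above the 95th percentile of all 13073 windows (0.43). With 22.5 kDa those of POLR1A, POLR1B, NOP58, WDR43 and WDR12, all on chromosome 2, were above it (0.60). The neighbours of BOP1 had medians of 0.26 and 0.12, below both limits, and for the mean of both isoforms, where BOP1 passed, its window was at percentile 86.7. Across the 37 members the log2 fold change and the neighbours' median had r = 0.76 with 18 kDa and 0.70 with 22.5 kDa, as a description over genes that share libraries. Over the 31 members not on chromosome 2, 1 passed with each isoform (NOP56), with medians of −0.02 and 0.20. For HEATR1 the neighbours' median isoform difference was 0.68. Copy number was not measured in these data, and its part in the pattern was not tested.

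Levels per length ordered the members by abundance. The highest were NHP2 (182 CPM per kb of its principal transcript, mean of 6 libraries), FBL (177), NCL (108) and NPM1 (101), and the lowest after TAF1A were UTP15 (1.84) and UTP20 (2.26). POLR1A (3.82) and POLR1B (13.7) lay in the lower range and NOP56 (81.4) in the upper. Together the 37 genes made up 3259 and 3684 CPM in the controls, 3721 and 3955 with 18 kDa and 4575 and 4151 with 22.5 kDa FGF2. Every FGF2 library was above both controls in that sum, by a narrow margin for the first 18 kDa library. The members' median log2 level relative to the control mean was −0.09 and 0.09 in the controls, 0.07 and 0.16 with 18 kDa and 0.30 and 0.26 with 22.5 kDa, so on that scale the first 18 kDa library lay below the second control.

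Other genes of the pathway, listed by function, are read against the same backgrounds. Of 104 further polymerase I, small nucleolar ribonucleoprotein and assembly genes, 2 passed as higher with 18 kDa (4.09% of all tested genes), IMP4 (a U3 particle protein, 0.84) and NLE1 (a large subunit factor, 0.75). With 22.5 kDa 7 passed as higher (5.02% of all tested genes): NOP10 (a box H/ACA protein, 0.89), NOL10 (0.96), WDR3 (0.98), PWP2 (0.70), IMP4 (0.89), RRP1 (0.78) and RRP1B (0.91). None passed as lower, and the medians were 0.04 and 0.19. IMP4 and NOL10 are on chromosome 2, and PWP2, RRP1 and RRP1B on chromosome 21, where 32 of 133 tested genes passed as higher with 22.5 kDa and 0 as lower. None of the 13 other polymerase I genes passed, among them UBTF, the activator that binds the ribosomal DNA (0.02 and −0.29, adjusted p = 0.975 and 0.476).

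Cytosolic ribosomal protein genes, whose counts are uncertain because of their many processed copies, had medians of 0.26 with 18 kDa and 0.22 with 22.5 kDa over 78 genes. RPS27A (0.75) and RPL31 (0.90) passed with 18 kDa, 2 of 78 beside 4.09% of all tested genes as higher. RPS7 (0.83) and RPS27A (0.98) passed with 22.5 kDa, 2 of 78 beside 5.02%. All 3 genes are on chromosome 2, and none of the 74 on other chromosomes passed. The RPS27A call with 18 kDa was not made by DESeq2 (adjusted p = 0.0539) or limma-voom (0.0778). The 14 nuclear exosome, 20 RNA polymerase III, 13 snoRNA host and 9 MYC network genes had none that passed with a single isoform. For the mean of both isoforms EXOSC4, an exosome subunit (0.62, adjusted p = 0.0317), and NOL6, of the small subunit processome (0.66, adjusted p = 0.0264), also passed, and neither did without the first empty vector library (0.394 and 0.500). Examples of the most abundant of these were GTF3C1 of polymerase III initiation (−0.05 and −0.09) and the snoRNA host SNHG7 (0.59 and 0.47). All of these pathway calls were lost without the first empty vector library, 4 of 4 with 18 kDa (adjusted p 0.175 to 0.483) and 9 of 9 with 22.5 kDa (0.0882 to 0.463).

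Without the second empty vector library 4 of the 4 calls with 18 kDa (0.0822 to 0.134) and 5 of the 9 with 22.5 kDa (0.0756 to 0.147) were lost. Leaving out the first or second 18 kDa library ended 1 call (NLE1, 0.102) and 2 calls (RPS27A and RPL31, 0.152 to 0.216) with 18 kDa, and leaving out the second 22.5 kDa library ended that of RPS27A (0.0537). With 22.5 kDa, leaving out the first 22.5 kDa library ended 5 calls (0.0764 to 0.169) and the second 8 (0.0614 to 0.231).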

How the data were processed

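RNA-seq read counts per gene, a single table deposited by the authors, were measured in 6 libraries, 2 for each of 3 groups. The submitters' processing notes name the genome build hg19 and the tool edgeR. No aligner, counting tool or strand setting of the counting is named in the labels. The labels call the libraries directional but name a kit whose standard form does not keep strand. Reads of overlapping genes on opposite strands may therefore not be separated. Genes carry NCBI Gene identifiers, of which 23308 of 23459 were matched to symbols in the RefSeq table (GRCh38.p14), used for names, chromosomes, gene order and promoters; no position is given in hg19. Transcript length and GC content came from the principal transcript in GENCODE and were found for 98.3% of tested genes.

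The low-count filter of edgeR left 13124 genes. Counts were scaled by TMM and tested with edgeR's robust quasi-likelihood F test (edgeR 4.0.16 in R 4.3.3) in a single fit over the 3 groups with 3 residual degrees of freedom, and p-values were adjusted by Benjamini-Hochberg over all tested genes at 0.05. Contrasts were each isoform against the empty vector, their mean against it, and 22.5 kDa against 18 kDa. The fit was tested on simulated counts. Alternatives were RLE and upper-quartile scaling, DESeq2 1.42.0, limma-voom (limma 3.58.1), no filter or a CPM of 1 in 2 libraries, 2 groups only, a replicate block, a non-robust fit, removal of the GC trend, a fold of 1.2, and leaving out each library. With 2 libraries against 2 an exact permutation test cannot go below p = 0.333 and was not used. Total counts were 5317687 to 6817324 per library, and the sparsest member had as few as 10 counts in a library. Within each group the spread between libraries exceeded Poisson counting noise (chi-square per degree of freedom 6.20 with the empty vector, 14.3 with 18 kDa and 14.3 with 22.5 kDa).

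The genes named with values were all members that passed, the 2 most abundant of each role and those with the 3 largest changes in each direction, and from the other lists up to 4 that passed or the most abundant where none did. Values of RRP9, NOP58, WDR12, GNL3 and LYAR, and the range of POLR1E, are given beyond this rule and were chosen after they had been seen. The members and all lists were chosen with earlier results of these data known, and the CCGGAAG motif and the positions of the E-box windows after the promoters had been searched.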

Additional observations from a re-analysis of the deposited data

Results flagged for a closer look

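RRP1B, a nucleolar protein of large subunit assembly outside the 37 genes, was the only gene of the related pathway lists whose response differed between the isoforms by a test of the difference itself. It stood at 34.3 and 48.0 CPM with the empty vector, 35.9 and 38.1 with 18 kDa FGF2 and the highest values, 80 and 74.2, with 22.5 kDa FGF2, a log2 difference between the isoforms of 1.06 (SE 0.24, adjusted p = 0.0154, edgeR). The call was lost without the first 18 kDa library (adjusted p = 0.0751), the first 22.5 kDa library (0.209) or the second 22.5 kDa library (0.136), and with upper-quartile scaling (0.0511). RRP1B is on chromosome 21, and its 24 nearest tested neighbours had a median isoform difference of 0.43. Of the 133 tested genes on chromosome 21, 125 lay above 0 between the isoforms (median 0.64), and 13 passed as higher. Of the 104 further polymerase I, small nucleolar ribonucleoprotein and assembly genes 1 passed between the isoforms, where 1.58% of all tested genes did. That share is no result about these genes as a set.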

How the results depend on the processing

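No called gene reversed under any alternative run; the median with 18 kDa, close to 0, changed sign under some. With 18 kDa FGF2 the 2 calls became 4 with RLE factors or no filter, 6 with the GC trend removed, 7 with the replicate block and the GC trend removed, and 6 without the first library of both FGF2 groups, and 1 to 5 without single libraries; the 5 hold 3 lower calls (RRN3, DDX21, HEATR1), made without the second 18 kDa library. The median of −0.02 became 0.10 with the GC trend removed, 0.095 with block and GC together and 0.17 without both first libraries, and ran from −0.012 to 0.23 without single libraries. With 22.5 kDa the 3 calls became 6 with no filter, with the 2 groups alone or with the replicate block, and 8 with the GC trend removed, with block and GC together, or without both first libraries (7 higher, and TAF1D lower), and 1 to 7 without single libraries; the median of 0.23 ran from 0.20 to 0.37. Between isoforms the count of 0 became 1 with RLE factors, DESeq2, limma-voom, the replicate block, the non-robust fit, the GC trend removed, or block and GC together (HEATR1 each time), 2 with the 2 groups alone and 3 with no filter, and 0 to 5 without single libraries; the median of 0.19 was 0.011 without both first libraries and 0.067 to 0.22 without single ones. For the mean of both isoforms the 4 calls became 7 with the GC trend removed, 9 with block and GC together and 8 without both first libraries, and 2 to 5 without single libraries; the median of 0.17 ran from 0.11 to 0.28. The cause was not tested. In the main fit 8.88% of all tested genes passed with 18 kDa, 10.9% with 22.5 kDa, 1.58% between the isoforms and 12.2% for the mean. Calls over all genes also changed between runs, as given below for 18 kDa. The member counts under these runs are therefore no result about the set.

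The labels do not say whether replicate numbers pair the libraries. Across genes, deviations of same-numbered libraries from their group means had r = −0.27 between empty vector and 18 kDa. The values were 0.39 between empty vector and 22.5 kDa and −0.41 between the isoforms. These deviations also ran with GC content, so the r cannot show whether libraries were paired. The replicate block gave 3 calls with 18 kDa and 4 for the mean. Over all genes, the calls with 18 kDa moved from 1165 to 617 without the first empty vector library, and to 1925 with the GC trend removed. Leaving out both first libraries was chosen after seeing the data, leaves 1 library in each FGF2 group and assumes that it varies like the empty vector pair. The 2 groups alone could not be used for the mean of both isoforms, which needs 3. Intervals rest on 2 libraries per group and are widest for DDX21 and TAF1A.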
